A study of Mus musculus with 23 samples.

Results

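The 37 genes of the mouse mitochondrial genome were described in RNA of cells sorted from Met1-iRFP breast tumours. They are all entries of the count table whose symbol starts with mt-, 37 of 48397 symbols, and they comprise 13 protein genes, 2 rRNA genes and 22 tRNA genes. All 37 lie on the mitochondrial chromosome in the GENCODE M21 annotation of GRCm38 (mm10), and that annotation places no other gene there.

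Met-1 cells come from a mammary tumour of the MMTV-PyMT mouse, and here they carry iRFP, a protein that fluoresces in the near infrared and so tags them for sorting. The tumours grew in FVB mice that were either exercised or sedentary, and cells were sorted into an iRFP-negative fraction, labelled as the tumour microenvironment (TME), and an iRFP-positive fraction, labelled as cancer cells. The 23 libraries of polyA RNA form 4 groups. TME cells of exercised mice gave 4 libraries (numbered 7, 8, 9 and 10) and TME cells of sedentary mice gave 4 (4, 6, 9 and 10). Cancer cells of exercised mice gave 7 libraries (1, 2, 4, 5, 7, 8 and 10) and cancer cells of sedentary mice gave 8 (2, 3, 4, 5, 6, 7, 9 and 10). Every group carried the tumour, so no library of tumour-free tissue serves as a control. The labels give no exercise regimen, no age and no sorting date, and do not say whether equal library numbers mark the same mouse. Nor do they say that libraries of a group came from separate animals, and the p-values below are measured against the spread between libraries, which may be technical.

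Library totals were 22682216 to 37388479 counts in TME cells of exercised mice, 16307545 to 35958441 in TME cells of sedentary mice, 20073700 to 25526059 in cancer cells of exercised mice and 15924340 to 25563245 in cancer cells of sedentary mice. The sorts were checked against marker lists. All 10 pan-leukocyte genes and all 10 endothelial genes were higher in TME than in cancer libraries, with median log2 differences of 4.04 and 3.97, while over all genes 25.3% were higher. Of the tumour-cell markers, Epcam differed by 0.08 ± 0.33 (log2 ± SE, adjusted p = 0.869 by edgeR's quasi-likelihood test with Benjamini-Hochberg adjustment) and Krt18 by -0.35 ± 0.15 (adjusted p = 0.0526), and of 5 epithelial and tumour genes tested out of 7 listed, 1 was higher (Cdh1, 2.81 ± 0.48) and 1 lower (Spp1, -0.33 ± 0.11, adjusted p = 0.0154). Their summed level was 10507 to 15360 CPM (counts per 1e6 counts) in TME libraries, with a median of 12489 CPM, against 10992 to 21541 CPM in cancer libraries, with a median of 15486 CPM, so the ranges of the sorts overlapped. Of the other lists, 6 of 8 fibroblast genes, 7 of 7 neutrophil genes, 2 of 4 erythroid genes, 2 of 4 skeletal muscle genes, 1 of 4 adipocyte genes, 1 of 1 brown adipocyte gene and 4 of 5 nuclear-retained RNAs that were tested were higher in TME cells; the adipocyte share is near that of all genes and is not a result about the list. Sedentary TME library 4 stood apart from the rest. It had the fewest detected symbols (18307) and a trimmed-mean (TMM) scaling factor of 0.655, against 0.964 to 1.08 in the other 22 libraries. Its factor was 1.06 when the 37 mitochondrial genes were left out of the scaling. The main counts and medians of the mitochondrial genes are given with and without it.

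The mitochondrial genome is a small circle of DNA present in many copies per cell. Both of its strands are transcribed as long precursors, from which the tRNAs that lie between the other genes are cut out, so that mRNAs and rRNAs are released at tRNA borders and most of them are then given a polyA tail. Its 13 proteins are subunits of the respiratory chain complexes I, III and IV and of ATP synthase (complex V), and its rRNAs and tRNAs serve the mitochondrial ribosome that makes them. The level of these transcripts in a library of sorted cells can follow genome copies, transcription, decay, the state of the cells at lysis and the kinds of cells present. In bulk libraries such as these, fewer cells of a type and less RNA per cell cannot be told apart.

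The letters of some mitochondrial genes matter for how their reads are counted. Genes overlap, and stretches of nuclear chromosomes 1 and 2 carry copies of parts of the circle. The 3′ end of mt-Atp8 and the 5′ end of mt-Atp6, which encode subunits 8 and 6 of ATP synthase, share 43 bases (chrM:7927-7969, plus strand). Those bases are in capitals in the 2 stretches of GRCm38 below, which run from chrM:7880-7969 for mt-Atp8 and chrM:7927-8016 for mt-Atp6. The next pair shows identity between a mitochondrial gene and its nuclear copy, at the start of mt-Co3 (subunit 3 of cytochrome c oxidase; chrM:8607-8696, plus strand) and of the pseudogene Gm28437 (chr1:24613882-24613971, minus strand). The last pair shows the difference found between mt-Nd3 (subunit 3 of complex I; chrM:9459-9548, plus strand) and the pseudogene Gm28438 (chr1:24613030-24613119, minus strand), with T3C in capitals, counted from the first base of the gene.
mt-Atp8: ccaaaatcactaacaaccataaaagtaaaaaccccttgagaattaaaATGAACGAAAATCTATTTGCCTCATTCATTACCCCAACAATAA
mt-Atp6: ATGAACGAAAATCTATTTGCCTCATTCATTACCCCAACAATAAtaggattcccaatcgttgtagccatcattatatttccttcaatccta
mt-Co3: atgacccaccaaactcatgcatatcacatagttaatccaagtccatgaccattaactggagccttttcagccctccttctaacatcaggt
Gm28437: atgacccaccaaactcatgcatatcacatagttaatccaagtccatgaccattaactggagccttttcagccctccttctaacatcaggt
mt-Nd3: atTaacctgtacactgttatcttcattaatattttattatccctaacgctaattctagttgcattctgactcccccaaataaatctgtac
Gm28438: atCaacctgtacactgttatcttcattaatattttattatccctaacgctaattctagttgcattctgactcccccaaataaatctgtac

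The share of all counts that fell on the 37 genes was 5.93%, 2.61%, 4.28% and 8.63% in libraries 7, 8, 9 and 10 of TME cells from exercised mice. It was 42.2%, 14.5%, 3.22% and 6.57% in libraries 4, 6, 9 and 10 of TME cells from sedentary mice. In cancer cells it was 2.53%, 3.39%, 3.59%, 2.72%, 1.86%, 3.04% and 2.34% in exercised libraries 1, 2, 4, 5, 7, 8 and 10. In sedentary cancer libraries 2 to 7, 9 and 10 it was 2.88%, 2.96%, 2.80%, 2.84%, 3.20%, 3.90%, 3.02% and 3.10%. Of the 8 TME libraries, 6 thus lay above every cancer library, while exercised TME library 8 and sedentary TME library 9 lay within the cancer range. At these depths the 95% Wilson interval of a share, which covers counting error only, spanned no more than 0.0479 percentage points, less than the difference between any 2 of the TME libraries.

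The group means were 5.36 ± 2.56% in TME cells of exercised mice (SD, n = 4) and 16.6 ± 17.7% in TME cells of sedentary mice (SD, n = 4). Without library 4 the sedentary TME mean was 8.09 ± 5.77% (SD, n = 3), and without libraries 4 and 6 it was 4.90%, below the mean of the exercised TME libraries. Over the TME libraries without sedentary library 4 the mean was 6.53 ± 4.06% (SD, n = 7), against 2.95 ± 0.494% in cancer cells (SD, n = 15). The cancer groups overlapped, with 2.78 ± 0.605% in exercised mice (SD, n = 7) and 3.09 ± 0.354% in sedentary mice (SD, n = 8). In sedentary TME library 4, 6889700 counts were mitochondrial, or 73.2 for every 100 counts of other genes. A single nuclear gene took at most 0.657% to 2.04% of the counts of a library.

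**Figure D1:**
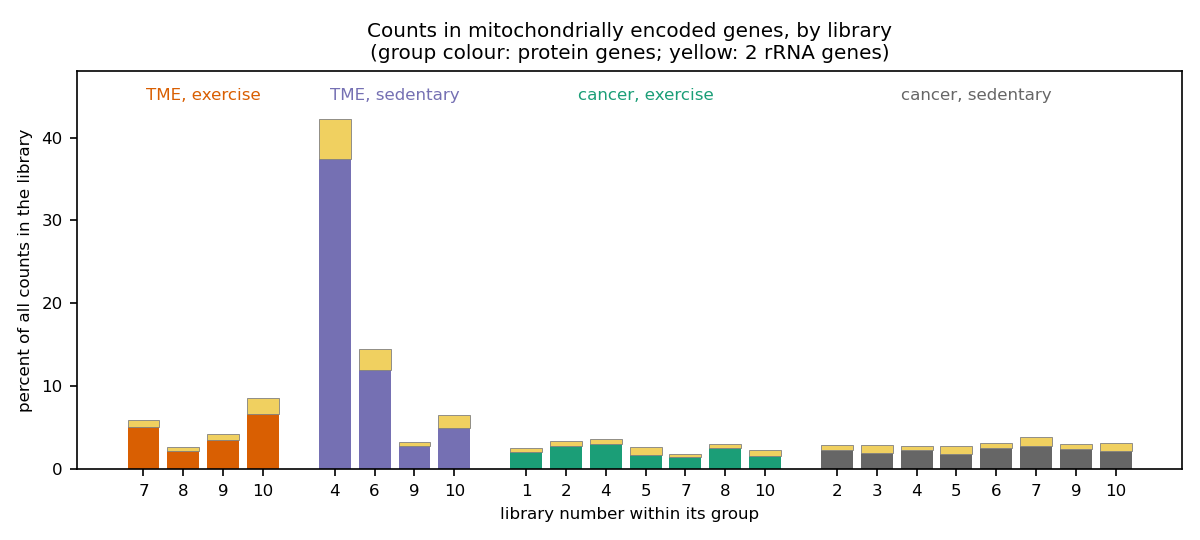
Share of all counts on the mitochondrial genes, in percent, with 1 bar per library. Each bar stacks the 13 protein genes (colour of the group) and the 2 rRNA genes (yellow). Sedentary TME library 4 (42.2%) and library 6 (14.5%) lie above all others, and the 15 cancer libraries lie between 1.86% and 3.90%.

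Most mitochondrial counts came from a few genes. mt-Co1, subunit 1 of cytochrome c oxidase (complex IV), took 21.3% to 34.2% of the mitochondrial counts of a library. mt-Nd1, a complex I subunit, took 10.7% to 20.3%, and mt-Cytb, the complex III subunit cytochrome b, took at least 10.3%. The large rRNA mt-Rnr2 took 7.17% to 23.4% and the small rRNA mt-Rnr1 took 3.78% to 14.4%, although the libraries were made from polyA RNA. Together the rRNAs made up 17.5 ± 4.50% of mitochondrial counts in TME cells of exercised mice (SD, n = 4) and 17.1 ± 5.55% in TME cells of sedentary mice (SD, n = 4). In cancer cells they made up 22.9 ± 8.75% in exercised mice (SD, n = 7) and 25.5 ± 6.46% in sedentary mice (SD, n = 8), and the ranges of all 4 groups overlapped.

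The tRNA genes held 61 to 721 counts per library in all, 0.0104% to 0.0474% of mitochondrial counts. mt-Ta (tRNA for alanine) was the most abundant, with a mean of 182.9 counts and 49 to 436 per library. mt-Tp (proline) averaged 27.3 counts and mt-Tl1 (leucine) 10.1. The tRNA genes mt-Td, mt-Tk, mt-Tg and mt-Tr had no count in any library, which allows up to 3 counts in each. The other 15 had means under 10 counts.

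Per length, the genes ordered in steps that do not follow their order on the circle. In CPM after TMM scaling, divided by gene length (CPM per kb), the medians over the 23 libraries were 5398 for mt-Co1, 5142 for mt-Nd1 and 3519 for mt-Cytb. The rRNAs followed with 2918 for mt-Rnr2 and 2590 for mt-Rnr1, then the complex I genes with 1756 for mt-Nd5, 1519 for mt-Nd2, 1110 for mt-Nd4 and 1000 for mt-Nd6. mt-Nd6 is the only protein gene on the minus strand and overlaps the end of mt-Nd5 by 14 bases. The remaining 6 genes were far below on the same scale, with 69.4 for mt-Co2, 22.1 for mt-Atp6, 15.4 for mt-Co3, 7.83 for mt-Nd3, 1.86 for mt-Nd4l and 0.938 for mt-Atp8. These 6 are neighbours, from chrM:7013 to chrM:10173, and no other protein gene lies between them.

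**Figure D2:**
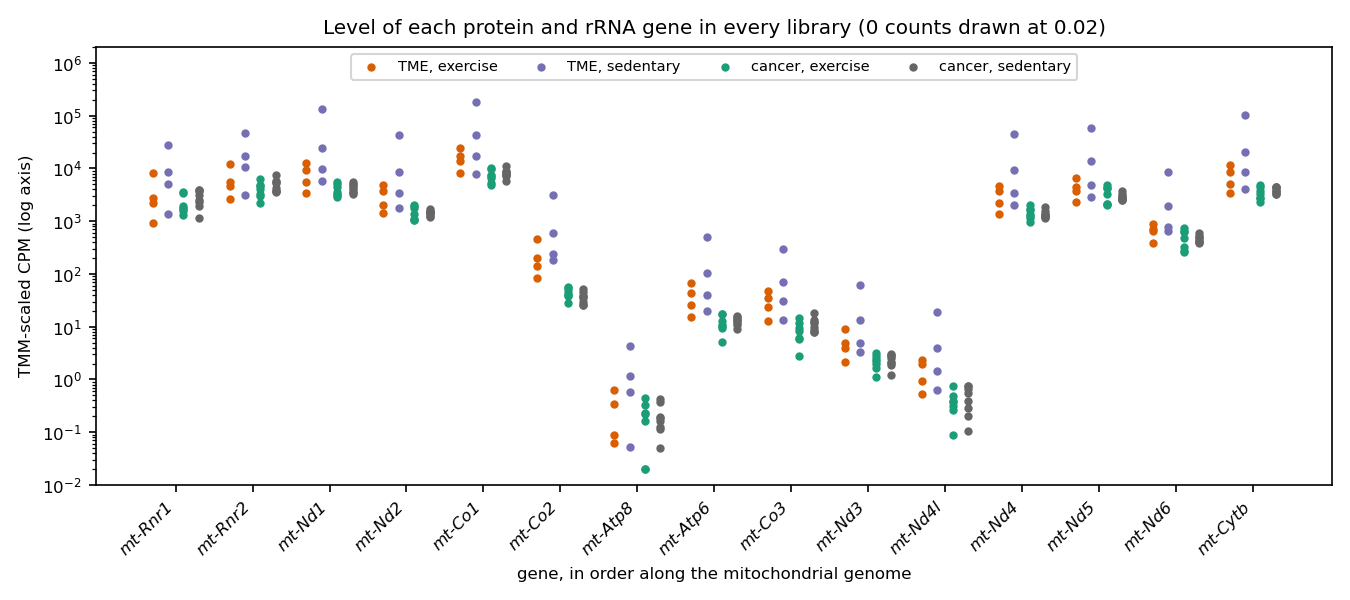
Level of the 13 protein genes and 2 rRNA genes in CPM (not divided by length) on a log axis, in their order on the mitochondrial genome, with 1 point per library and a colour per group. The 6 genes from mt-Co2 to mt-Nd4l form a trough, and sedentary TME library 4 is the highest point of each gene.

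The 6 low genes cover 2998 of the 11403 bases of mitochondrial protein genes (26.3%) but held 0.164% to 0.733% of mitochondrial counts (median 0.252%). A block of pseudogenes on the minus strand of chromosome 1 carries copies of 7 neighbouring genes, from Gm28439 (a copy of part of mt-Nd4, chr1:24611535-24612410) to Gm29216 (a copy of part of mt-Co1, chr1:24615706-24616197). Identity was 100% over 681 bases of mt-Co2 (Gm28661), 678 of mt-Atp6 (Gm10925), 783 of mt-Co3 (Gm28437) and 294 of mt-Nd4l (Gm10222). Over 345 bases of mt-Nd3 (Gm28438) the copy had the single difference shown above, and over 492 bases of mt-Co1 it had 6 differences. Of all 50-base windows, 100% in mt-Co2, 99.9% in mt-Co3, 99.5% in mt-Atp6, 98.8% in mt-Nd4l and 98.0% in mt-Nd3 occurred in another annotated transcript. The share was 62.2% in mt-Nd4, 51.1% in mt-Co1, 8.2% in mt-Nd2 and 7.6% in mt-Nd5, and 1.0% in mt-Rnr2. It was 0 in mt-Rnr1, mt-Nd1, mt-Nd6, mt-Cytb and mt-Atp8. Part of the sharing was with chromosome 2. There, Gm13340 (123 to 7648 counts per library) held 27.5% of the windows of mt-Co1. Gm13341 (103 to 3810 counts) held 35.3% of those of mt-Co2, and Gm13339 held 8.2% of those of mt-Nd2.

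The copies themselves were listed with counts. Gm28438 held 2154 to 37976 counts per library, 51.7 to 235 times those of mt-Nd3. Gm28661 held 334 to 16644 and Gm28437 held 95 to 5501. How reads that fit more than 1 place were counted is not stated. The levels of mt-Co2, mt-Atp6, mt-Co3, mt-Nd3 and mt-Nd4l, and part of those of mt-Co1 and mt-Nd4, are therefore uncertain. The same holds for the levels of the copies. mt-Atp8 is low too, although no 50-base window of it occurs in another annotated transcript. Only annotated transcripts were compared, and the 233 unannotated bases on chromosome 1 between Gm10925 and Gm28661, which correspond in place to the 230 bases between mt-Co2 and mt-Atp6, were not. mt-Atp8 has 204 bases, of which 43 overlap mt-Atp6. The part that shared sequence plays in these low levels was not tested.

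The first comparison sets the iRFP-negative sort against the iRFP-positive one, over both treatments. Nearly all mitochondrial genes that could be tested were higher in TME cells, with a median of 2.14 on the log2 scale over the 15 protein and rRNA genes, and the excess was carried unequally by the TME libraries. The gene that set the sorts apart most was mt-Co2, subunit 2 of cytochrome c oxidase. It stood at 202, 82.8, 139 and 453 CPM in exercised TME libraries 7, 8, 9 and 10 and at 3071, 599, 182 and 235 CPM in sedentary TME libraries 4, 6, 9 and 10. In cancer cells it ranged from 28.1 to 57.2 CPM in exercised mice (median 41.9) and from 25.3 to 52.3 CPM in sedentary mice (median 36.5). All 8 TME libraries thus lay above all 15 cancer libraries, as was the case for 5.19% of the 17503 genes tested. mt-Co2 was the only 1 of 19 mitochondrial genes tested without overlap. This is near the share of all genes and is not a result about the set. No mitochondrial gene lay below all cancer libraries, against 4.35% of all genes.

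mt-Co1 overlapped between the sorts. It stood at 17033, 8339, 14075 and 24608 CPM in exercised TME libraries 7, 8, 9 and 10 and at 179932, 42240, 7903 and 17256 CPM in sedentary TME libraries 4, 6, 9 and 10. Its cancer values were 4938 to 10243 CPM in exercised mice (median 7238) and 5834 to 11175 CPM in sedentary mice (median 8097). Exercised TME library 8 and sedentary TME library 9 lay within that range. mt-Nd1 stood at 9339, 3420, 5632 and 12601 CPM in the exercised TME libraries and at 130868, 24704, 5806 and 9916 CPM in the sedentary ones. Its cancer values were 2916 to 5506 CPM in exercised mice (median 3551) and 3231 to 5432 CPM in sedentary mice (median 4308). Here exercised TME library 8 was the only TME library within the cancer range. mt-Rnr2 stood at 4616, 2602, 5490 and 11997 CPM in the exercised TME libraries and at 46254, 17420, 3086 and 10554 CPM in the sedentary ones. Its cancer values were 2187 to 6315 CPM in exercised mice (median 4033) and 3576 to 7577 CPM in sedentary mice (median 4775), so that 4 of 8 TME libraries lay among those of cancer cells.

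In edgeR's quasi-likelihood test with Benjamini-Hochberg adjustment over all 17503 genes, 19 of the 37 members passed the filter on low counts, 17 of them were higher in TME cells and 0 lower. Over all genes tested 25.3% were higher and 27.3% lower, with a median of -0.01. mt-Atp8, mt-Nd4l, mt-Te and mt-Tl1 do not pass the filter in cancer libraries alone and so entered through the TME libraries. Of the 15 members that pass it in cancer libraries too, 14 were higher, among them all 13 protein and rRNA genes, whose median was 2.14. The log2 difference was 3.57 ± 0.40 for mt-Co2 (adjusted p = 2.64e-07), 2.14 ± 0.37 for mt-Nd1 (adjusted p = 5.9e-05) and 2.02 ± 0.36 for mt-Co1 (adjusted p = 7.4e-05). The other complex IV gene, mt-Co3, differed by 2.50 ± 0.40. The complex I genes ranged from 1.55 ± 0.34 for mt-Nd6 to 2.79 ± 0.45 for mt-Nd4l. mt-Cytb differed by 2.10 ± 0.37. Of the ATP synthase genes, mt-Atp6 differed by 2.65 ± 0.41 and mt-Atp8, with at most 46 counts in a library, by 1.65 ± 0.58. The rRNAs had the smallest differences of the 15, 1.31 ± 0.41 for mt-Rnr1 (adjusted p = 0.0106) and 1.29 ± 0.33 for mt-Rnr2 (adjusted p = 0.00281). Among the tRNAs, mt-Tp (1.55 ± 0.44) and mt-Tl1 (1.45 ± 0.52) passed the test, while mt-Ta (0.68 ± 0.35) and mt-Te (1.18 ± 0.59) did not. DESeq2 called 17 members higher (28.5% of all genes) and limma's voom with quality weights 13 (25.5%), with 0 members lower in either (24.8% and 28.6% of all genes). Of the 15 members that pass the filter in cancer libraries too, DESeq2 called 14 and voom 11. With equal library numbers taken as a replicate block, 6 members were higher, against 20.2% of all genes. Of the 15 protein and rRNA genes, mt-Co2, mt-Nd3 and mt-Nd4l then passed and 12 did not, with a median of 1.69. Of the 13 that pass the filter in cancer libraries too, 2 passed. The labels do not say that the numbers pair libraries.

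Sedentary TME library 4 decided much of the size. Without it 13 of the 15 genes were higher, against 26.6% of all genes, and the median of the 15 was 1.36, or 2.56-fold. Of the 13 that pass the filter in cancer libraries too, 12 were higher. mt-Rnr1 (0.83 ± 0.37, adjusted p = 0.0693 by edgeR's test) and mt-Atp8 (1.05 ± 0.58, adjusted p = 0.137) were the genes that no longer passed. Without libraries 4 and 6 the median was 0.97 (1.97-fold), and 11 of 15 were higher against 23.9% of all genes. Among the 13 that also pass the filter in cancer libraries, 10 were then higher. Taken in exercised mice alone, a contrast added after the data had been seen, 4 of the 15 were higher against 17.3% of all genes, with a median of 1.05. These were mt-Co2 (2.33 ± 0.56), mt-Atp6 (1.64 ± 0.58), mt-Co3 (1.82 ± 0.58) and mt-Nd4l (1.88 ± 0.65), all among the 5 genes that share nearly all their sequence with chromosome 1. mt-Nd3, the remaining gene of those 5, stood at 1.18 ± 0.55 and did not pass. As mt-Nd4l entered through the TME libraries, 3 were higher among the 13 genes that pass the filter in cancer libraries too. Within exercised mice, same-numbered TME and cancer libraries 7, 8 and 10 deviated together by correlations of 0.169, 0.331 and 0.304, so the number was tried as a block. Exercised and sedentary TME libraries 9 also deviated together (0.336), while libraries 10 hardly did (0.0239), so an equal number need not mark the same mouse. With the number as a block in exercised mice, also added later, edgeR's test called 0 of the 15, against 8.72% of all genes higher and 11.4% lower. Their median was 1.30, all 15 were above 0, 1 had an unadjusted p under 0.05 and the smallest adjusted p was 0.0798 (mt-Nd4l). The call in exercised mice thus did not hold with the block. In sedentary mice alone, likewise added, all 15 were higher against 19.8% of all genes, with a median of 3.16. Without library 4, 13 of the 15 were higher there, against 17.5% of all genes, with a median of 1.68 (3.20-fold), and mt-Rnr1 and mt-Atp8 did not pass. Of the 13 genes that pass the filter in cancer libraries too, 13 were higher in sedentary mice with library 4 and 12 without it. The libraries of sedentary mice did not overlap between the sorts for 7 of 19 genes tested (mt-Nd1, mt-Nd2, mt-Co2, mt-Atp6, mt-Nd3, mt-Nd4 and mt-Nd6), against 10.2% of all genes. Those of exercised mice did not overlap for mt-Co2 alone. This 1 of 19 is not above the 11% of all genes and is not a result about the set.

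Counts assigned to the nuclear copies were higher in TME cells too. With identity of up to 100%, reads of a copy and of its mitochondrial gene cannot be told apart, so these counts are not separate evidence. Of the 9 pseudogenes on the list, 7 could be tested and all 7 were higher in TME cells, against 25.3% of all genes, with a median of 2.39. Without sedentary TME library 4 the median was 1.71 and all 7 still passed, against 26.6% of all genes. The summed level of the list was 7215 CPM in that library and 600 to 1732 CPM in the other sedentary TME libraries. Gm28661, the copy of mt-Co2, differed by 2.62 ± 0.39 on the log2 scale, less than mt-Co2 itself. Counts on Gm28661 were 0.594 to 0.746 of those on mt-Co2 in TME cells of exercised mice and 0.507 to 0.664 in TME cells of sedentary mice. They were 0.527 to 1.08 of them in cancer cells of exercised mice and 0.962 to 2.25 in cancer cells of sedentary mice. The part of the copies in the difference of mt-Co2 between the sorts was not tested.

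**Figure D3:**
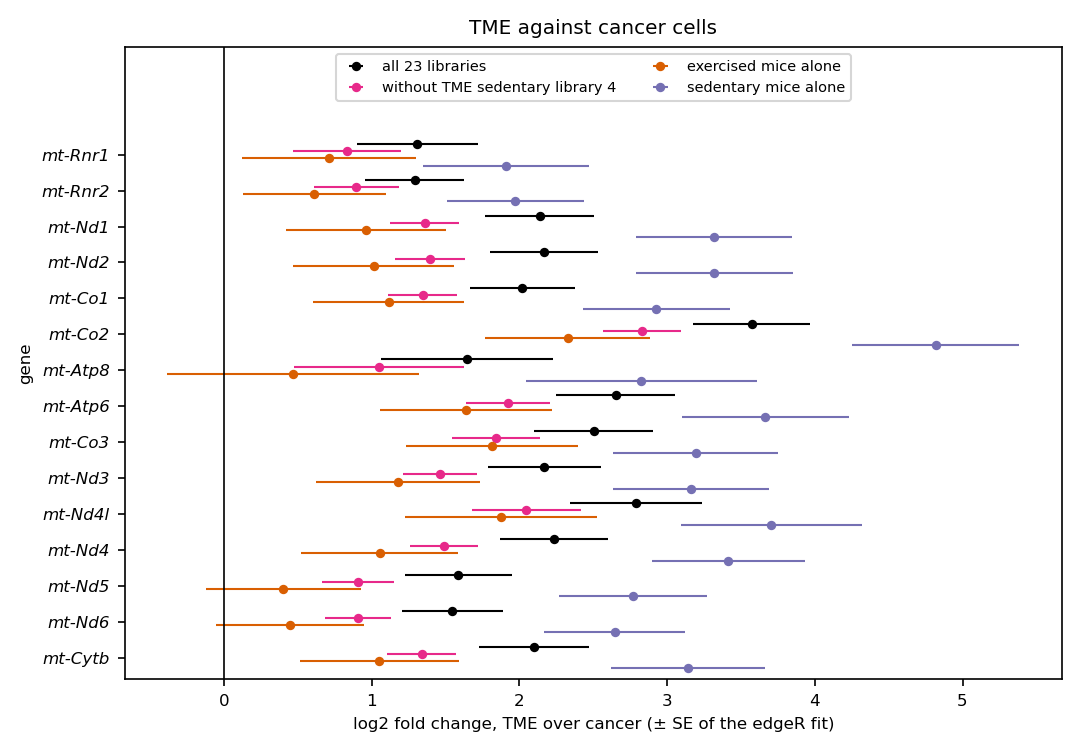
Log2 difference between TME and cancer cells for the 13 protein genes and 2 rRNA genes, as points with bars of ± SE, over all 23 libraries, without sedentary TME library 4, in exercised mice alone and in sedentary mice alone. All points lie above 0, those of sedentary mice alone are the highest, and mt-Co2 has the highest value in each set.

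The second comparison asks how mitochondrial transcripts of TME cells differed between exercised and sedentary mice. All 15 protein and rRNA genes had lower fitted levels in exercised mice, none passed the test, and the size of the difference rested on 2 sedentary libraries. mt-Nd1 had the largest difference of the 15, -2.48 ± 1.06 on the log2 scale, and ranked 16272 of 16273 genes tested when ordered from the highest to the lowest. It ranked 16444 of 16778 without sedentary library 4 and 10140 of 17669 without libraries 4 and 6. By its values given above, sedentary libraries 4 and 6 lay above all exercised libraries and sedentary libraries 9 and 10 lay among them. mt-Cytb had the same order, with 8370, 3475, 5161 and 11565 CPM in exercised libraries 7, 8, 9 and 10 and with 103083, 20746, 4025 and 8432 CPM in sedentary libraries 4, 6, 9 and 10. mt-Nd6 stood at 710, 392, 665 and 868 CPM in the exercised libraries and at 8390, 1935, 644 and 766 CPM in the sedentary ones. No member's exercised and sedentary libraries were without overlap, against 1.96% of genes that lay higher and 1.78% that lay lower in exercised mice without overlap.

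edgeR's quasi-likelihood test with Benjamini-Hochberg adjustment called 0 of 16273 genes (0%) and so 0 members. DESeq2 called 26 genes higher (0.185%) and 14 lower (0.0997%), and limma's voom with quality weights called 0, with 0 members in either. At an unadjusted p under 0.05, 802 genes were higher (4.93%) and 571 lower (3.51%), and the 3 members among the latter were mt-Nd6 and the tRNAs mt-Tl1 and mt-Tp. Over the 15 genes the log2 difference ran from -2.48 to -1.59 with a median of -2.17, and the smallest adjusted p was 0.586. The values were -1.96 ± 0.97 for mt-Co1, -2.27 ± 1.04 for mt-Cytb, -2.23 ± 1.05 for mt-Co2, -2.37 ± 1.11 for mt-Atp8, -1.66 ± 0.85 for mt-Rnr2 and -1.59 ± 1.01 for mt-Rnr1. Without sedentary library 4 the median was -0.63, all 15 were still below 0 and the smallest adjusted p was 0.852. Without libraries 4 and 6 the median was 0.15, with 11 of the 15 above 0. With library number as a replicate block, which within TME cells rests on numbers 9 and 10, the median was 0.40 with 14 of the 15 above 0. Sedentary libraries 4 and 6 have no partner there and do not bear on that value. It is thus not a check separate from leaving them out. Exercised and sedentary libraries of equal number also cannot come from the same mouse.

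**Figure D4:**
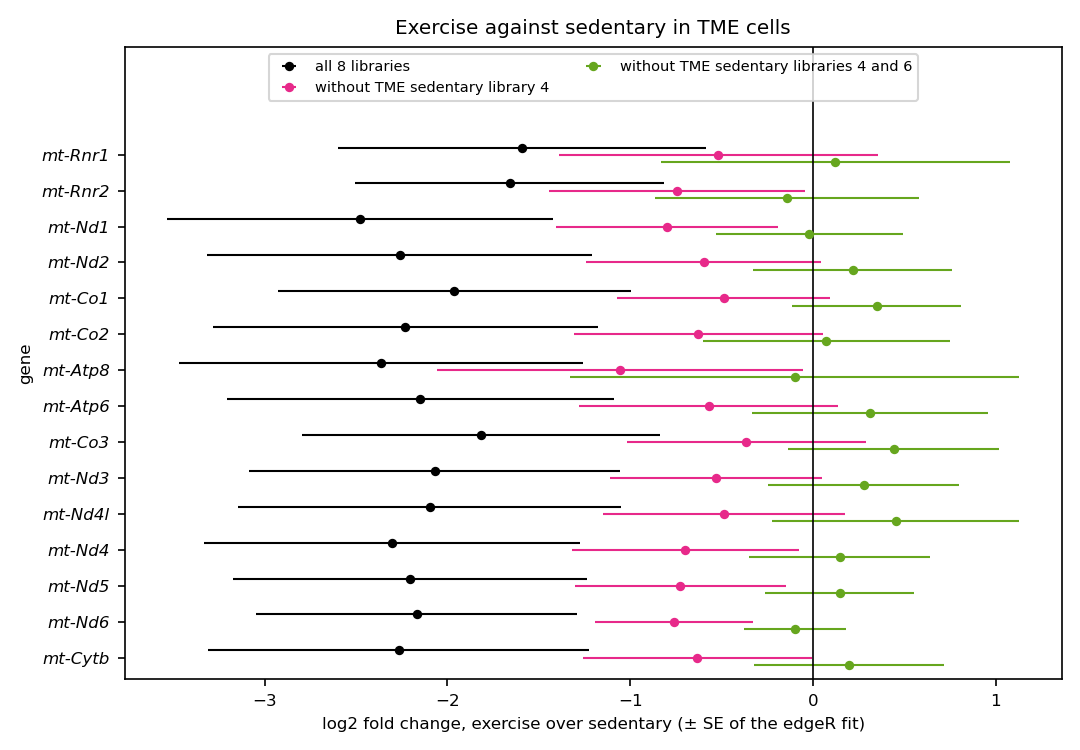
Log2 difference between exercised and sedentary mice in TME cells for the 13 protein genes and 2 rRNA genes, as points with bars of ± SE, over all 8 libraries, without sedentary library 4, and without sedentary libraries 4 and 6. The values of all libraries lie between -2.48 and -1.59, and those without both libraries lie around 0.

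The libraries with high mitochondrial shares were set beside marker lists. The summed level of the 10 endothelial markers was 65.8 to 132 CPM in exercised TME libraries, and 444 CPM in sedentary TME library 4 against 94.9 to 121 CPM in the other sedentary ones. The 10 pan-leukocyte markers summed to 249 to 1513 CPM in exercised TME libraries and 360 to 460 CPM in sedentary ones, with 435 CPM in library 4. The skeletal muscle markers summed to 8.99 CPM in library 4 and 2.88 to 6.45 CPM in the other TME libraries, and Ckm, Myh2, Tnnt3 and Pvalb had no count in library 4. Brown adipocyte markers summed to 1.40 CPM in library 4, against 0.667 to 0.850 CPM in the other sedentary TME libraries and 0.532 to 1.73 CPM in exercised ones. Library 6 had 121 CPM of endothelial and 4.62 CPM of muscle markers, and sedentary libraries 9 and 10 had 94.9 to 108 CPM of endothelial markers. Libraries 4 and 6 had 112 and 114 CPM of neutrophil markers, against 48.3 to 81.8 CPM in sedentary libraries 9 and 10 and 99.7 to 164 CPM in exercised ones. Of these markers, Mmp8 and Ly6g had no count in library 4. Erythroid markers summed to 68.4 and 89.5 CPM in libraries 4 and 6, against 4.07 to 25.9 CPM in sedentary libraries 9 and 10 and 2.03 to 199 CPM in exercised ones. Fibroblast markers summed to 1436 and 1469 CPM in libraries 4 and 6, against 1882 to 2707 CPM in sedentary libraries 9 and 10 and 1220 to 2215 CPM in exercised ones. Beside sedentary libraries 9 and 10, libraries 4 and 6 were thus higher in endothelial, neutrophil and erythroid and lower in fibroblast markers. Both lay within the exercised range of each, except that library 4 lay far above it for endothelial markers. The part of these markers in the mitochondrial share was not tested.

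In cancer cells the comparison of exercised with sedentary mice had more libraries and much less spread, and no mitochondrial gene passed the test. Of 15096 genes tested, edgeR's quasi-likelihood test with Benjamini-Hochberg adjustment called 0 (0%), and 15 members entered it. mt-Atp8 and mt-Nd4l did not pass the filter on low counts. At an unadjusted p under 0.05, 894 genes were higher (5.92%) and 1007 lower (6.67%), with 0 members among them. DESeq2 called 70 genes higher (0.473%) and 91 lower (0.615%), and limma's voom 106 (0.702%) and 90 (0.596%), again with 0 members. The exercised libraries lay above all sedentary ones for 0.298% of genes and below them for 0.053%, with 0 members among either. The 13 protein and rRNA genes tested ran from -0.47 to 0.23 on the log2 scale with a median of -0.15, and 5 of them were above 0. The ends were mt-Co3 (-0.47 ± 0.27, adjusted p = 0.495) and mt-Co2 (0.23 ± 0.16, adjusted p = 0.594). mt-Co1 differed by -0.18 ± 0.15, mt-Nd1 by -0.15 ± 0.14, mt-Cytb by -0.20 ± 0.13 and mt-Nd6 by 0.01 ± 0.22. The rRNAs differed by -0.41 ± 0.29 (mt-Rnr1) and -0.32 ± 0.21 (mt-Rnr2). Differences of this size could not be told from 0 with these libraries.

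The difference between the 2 exercise effects, TME minus cancer, was tested as an interaction over all 23 libraries. It was below 0 for all 15 genes, from -2.49 to -1.20 with a median of -2.09, and 0 of 17503 genes passed edgeR's test (0%), with a smallest adjusted p of 0.559 among the 15. At an unadjusted p under 0.05, 585 genes were lower (3.34%) and 731 higher (4.18%), and 11 of the 19 members tested were among the lower ones. Without sedentary TME library 4 it was 0 of 19, against 374 genes (2.08%). DESeq2 called 1 gene higher and 1 lower (0.00633% each), and limma's voom 19 higher (0.109%) and 17 lower (0.0971%), with 0 members in either. Without sedentary TME library 4 the median was -0.44, and without libraries 4 and 6 it was 0.18, with 11 of 15 above 0. An effect of exercise on mitochondrial transcripts that differs between the sorts was therefore not detectable in these libraries.

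Ratios of 2 mitochondrial genes within a library do not depend on how the library was scaled. Of these ratios, 5 were tested in 4 contrasts by two-sided exact permutation tests. The tests treated libraries as independent, also in exercised mice, where library number served as a block above. None of the 20 passed after Benjamini-Hochberg adjustment, the smallest adjusted p being 0.286. Between exercised and sedentary TME cells, 4 against 4 libraries cannot give a p small enough to pass, even if all 5 ratios reached the smallest. For that contrast the outcome therefore decides nothing. The ratios that came nearest separated exercised from sedentary TME cells. The log2 ratio of mt-Co1 to mt-Nd1, a complex IV over a complex I subunit, was 0.87, 1.29, 1.32 and 0.97 in exercised libraries 7, 8, 9 and 10. It was 0.46, 0.77, 0.44 and 0.80 in sedentary libraries 4, 6, 9 and 10, so that all 4 exercised libraries lay above all 4 sedentary ones. Library 4, with the highest mitochondrial share, did not stand apart here. The means were 1.11 ± 0.228 and 0.62 ± 0.193 in exercised and sedentary mice (SD, n = 4 each), a difference of 0.49 with an exact permutation p of 0.0286, the smallest that 4 against 4 libraries can give, and an adjusted p of 0.286. The log2 ratio of mt-Cytb to mt-Nd1 showed the same order of groups, with means of -0.10 ± 0.081 in exercised and -0.34 ± 0.135 in sedentary TME cells (SD, n = 4 each). Its difference was 0.24, with the same exact permutation p of 0.0286 and adjusted p of 0.286. These 2 ratios share mt-Nd1 and are not independent. In cancer cells the mt-Co1 to mt-Nd1 difference between exercised and sedentary mice was -0.04 (exact permutation p = 0.824).

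Added up by complex, as a description, complex I genes took 44.0 ± 1.67% of mitochondrial protein counts in TME cells of exercised mice (42.5% to 46.0%; SD, n = 4) and 48.9 ± 2.51% in those of sedentary mice (46.3% to 52.0%; SD, n = 4). Complex IV genes took 39.2 ± 2.63% in exercised mice (36.3% to 42.1%) and 33.9 ± 2.16% in sedentary mice (32.0% to 36.2%), and neither range overlapped. In cancer cells complex I took 49.3 ± 3.35% in exercised (SD, n = 7) and 46.6 ± 3.19% in sedentary mice (SD, n = 8), so the order of the means was the other way round there. As mt-Co1 makes up nearly all complex IV counts, these sums repeat the mt-Co1 ratio.

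Between the sorts, the log2 ratio of mt-Rnr2 to mt-Co1 differed by -0.59 in exercised mice, with means of -1.49 in TME and -0.90 in cancer cells (exact permutation p = 0.0788). In sedentary mice the means were -1.33 in TME and -0.75 in cancer cells (exact permutation p = 0.0606), and the adjusted p was 0.289 in both. The log2 ratio of mt-Nd6 to mt-Cytb, a gene of the minus strand over its plus-strand neighbour, averaged -3.35 ± 0.360 in TME cells (SD, n = 4) and -2.91 ± 0.295 in cancer cells of exercised mice (SD, n = 7; exact permutation p = 0.0485, adjusted p = 0.289). In sedentary mice it averaged -3.29 ± 0.436 in TME and -3.05 ± 0.243 in cancer cells (SD, n = 4 and 8; exact permutation p = 0.234, adjusted p = 0.521). The ratio of the rRNAs to each other, mt-Rnr2 to mt-Rnr1, averaged 1.01 and 0.99 on the log2 scale in TME cells of exercised and sedentary mice and 0.92 and 0.86 in cancer cells of exercised and sedentary mice, and its 4 contrasts had exact permutation p-values of 0.529 to 0.914.

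A ratio that was added after the data had been seen, and so is given without a test, set mt-Co2 against mt-Co1, which lie next to each other and encode subunits of the same complex. It was 0.00986 to 0.0184 in TME cells of exercised mice and 0.0136 to 0.0230 in those of sedentary mice. It was 0.00536 to 0.00757 in cancer cells of exercised mice and 0.00283 to 0.00896 in those of sedentary mice, so no TME library overlapped a cancer library, library 4 included. With the counts of the copy Gm28661 added to mt-Co2, it was 0.0157 to 0.0299 and 0.0222 to 0.0370 in TME cells of exercised and sedentary mice, against 0.00868 to 0.0119 and 0.00767 to 0.0212 in cancer cells of exercised and sedentary mice. The sorts then still did not overlap in exercised mice and in sedentary mice, while TME cells of exercised mice overlapped cancer cells of sedentary mice. Counts of Gm13341 on chromosome 2, which shares 35.3% of the 50-base windows of mt-Co2, were not added.

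**Figure D5:**
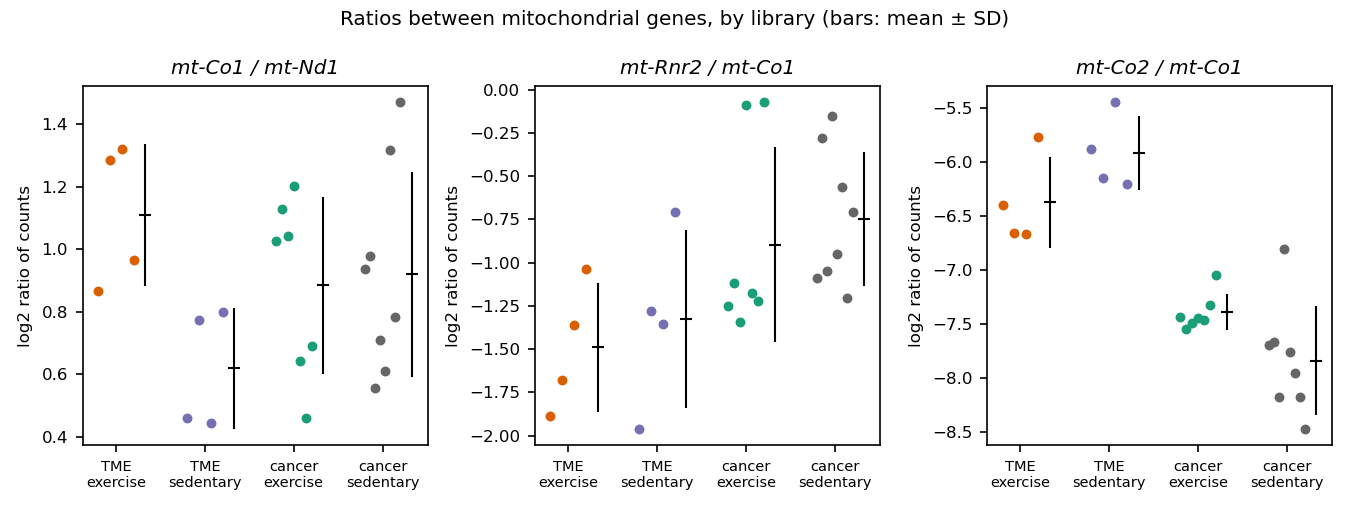
Log2 ratios of counts of 3 pairs of mitochondrial genes, with 1 point per library and bars of mean ± SD beside each group. For mt-Co1 to mt-Nd1 the 4 exercised TME libraries lie above the 4 sedentary ones, for mt-Rnr2 to mt-Co1 the TME means lie below the cancer means, and for mt-Co2 to mt-Co1 all TME libraries lie above all cancer libraries.

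Nuclear genes that serve the mitochondrial genome were read from the same fits. Of 18 tested genes of mitochondrial DNA replication and transcription, 5 were higher and 2 lower in TME than in cancer cells, against 25.3% higher and 27.3% lower of all genes. The share of higher genes is near that of all genes and is not a result about the list. Dguok, a kinase that supplies nucleotides for mitochondrial DNA, was higher by 0.39 ± 0.08 on the log2 scale and Polg2, the accessory subunit of its polymerase, by 0.59 ± 0.12, while Mterf3, a negative regulator of its transcription, was lower by 0.66 ± 0.10 and Tfb2m, a transcription initiation factor, by 0.44 ± 0.13. Tfam, which packages the DNA and starts transcription, differed by -0.15 (adjusted p = 0.0757 by edgeR's test). Of 23 tested genes of mitochondrial RNA processing, stability and decay, 0 were higher and 13 were lower in TME cells, against 25.3% and 27.3% of all genes. Without sedentary TME library 4, 1 was higher and 11 lower, against 26.6% and 21.5% of all genes. The lower genes include Trnt1, which adds the CCA end to tRNAs (lower by 0.78 ± 0.08), Pnpt1, a subunit of the mitochondrial RNA-degrading complex (lower by 0.74 ± 0.08), Ptcd3, a protein of the mitochondrial ribosome's small subunit (lower by 0.78 ± 0.09), and Pde12, which removes polyA tails (lower by 0.67 ± 0.08). The summed level of this list was 811 to 945 CPM in TME cells of exercised mice and 793 to 865 CPM in those of sedentary mice, against 1008 to 1207 CPM in cancer cells of exercised mice and 938 to 1120 CPM in those of sedentary mice.

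Of 10 tested regulators of mitochondrial biogenesis, 2 were higher and 4 lower in TME cells, against 25.3% and 27.3% of all genes, among them the nuclear receptor gene Esrra (0.56 ± 0.13) and the transcription factor genes Yy1 (-0.70) and Gabpa (-0.59) and the deacetylase gene Sirt1 (-0.40). Of 9 tested mitophagy genes, which remove mitochondria, 2 were higher and 4 lower, against 25.3% and 27.3% of all genes. Among them were Bnip3 (-0.89 ± 0.19), Tax1bp1 (-0.29), Phb2 (0.38) and Pink1 (0.36). Without sedentary TME library 4, 2 were higher and 2 lower, against 26.6% and 21.5% of all genes. Between exercised and sedentary mice, 0 genes of these 4 lists passed edgeR's test in TME cells, in cancer cells or in the difference between them, and the lists' medians in TME cells lay between -0.02 and 0.05. In sedentary TME library 4 the summed levels were 353 CPM for replication and transcription and 793 CPM for RNA processing, against 348 to 377 CPM and 808 to 865 CPM in the other sedentary TME libraries. Its biogenesis regulators summed to 309 CPM, against 310 to 321 CPM in the others, and its mitophagy genes to 854 CPM, against 787 to 916 CPM. Library 4 was thus the lowest sedentary TME library for RNA processing and biogenesis and lay among the others for the remaining lists. The part of these lists in the mitochondrial share was not tested.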

How the data were processed

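PolyA RNA from Trizol extracts went into KAPA Standard mRNA-Seq libraries, per the labels' protocols. The submitters' processing notes name STAR, featureCounts and mm10; their versions, the strand setting and the treatment of reads with several matches are not stated. The authors deposited raw counts for 48397 symbols in 23 libraries, of which 16422 had no count. Gene positions and transcripts are those of GENCODE M21 on GRCm38, matched by symbol for 46394 symbols (95.86%).

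Counts were tested with edgeR 4.0.16 in R 4.3.3 (TMM, filterByExpr, robust quasi-likelihood, two-sided, Benjamini-Hochberg over all genes tested, threshold 0.05). Exercise was tested within each sort, and TME against cancer and the interaction over all 23 libraries. CPM values are scaled by TMM over all libraries. Log2 ratios had 0.5 added to each count and exact permutation tests (scipy 1.17.1), adjusted over 20 tests. Alternatives were DESeq2 1.42.0, limma 3.58.1 (voom with quality weights), other scalings and filters, a replicate block and leaving out libraries; contrasts within exercised mice (with and without the block) or sedentary mice (with and without TME library 4) and the mt-Co2 ratios were added after the data had been seen. The fits were tested on simulated data. The members and lists were chosen with earlier results of these data known. All protein and rRNA genes are named, tRNAs with a mean of at least 10 counts or the highest or lowest, and up to 4 genes of a nuclear list with the smallest p. Genes with near-identical copies, and overlapping genes, are uncertain.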

Additional observations from a re-analysis of the deposited data

Results flagged for a closer look

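In 9 of 84 groups of values, the highest library lay further from its nearest neighbour than Dixon's 95% limit allows; chance gives about 1 in 20 groups, or 4.2 of 84. For 7 genes this was sedentary TME library 4, which stood at 130868 CPM for mt-Nd1, 43492 CPM for mt-Nd2, 3071 CPM for mt-Co2, 62.8 CPM for mt-Nd3, 44261 CPM for mt-Nd4, 8390 CPM for mt-Nd6 and 103083 CPM for mt-Cytb, with a gap of over 0.829 of the range of 4 libraries. These 7 come from the same library and are not independent. The rule did not flag that library's mitochondrial share of 42.2%, nor its levels of the other protein and rRNA genes. In cancer cells of sedentary mice, library 7 had a mitochondrial share of 3.90% and library 4 a log2 ratio of mt-Rnr2 to mt-Rnr1 of 1.66, with gaps of 0.628 and 0.563 of the range against a limit of 0.526 for 8 libraries.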

How the results depend on the processing

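Of the gene-level values, 1488 kept their direction and their side of the threshold, 51 no longer passed and 60 changed sign; of the counts, shares and ratios, 491 kept theirs, 6 moved and 15 changed sign. The count of members higher in TME cells was 17, and it was 11 without sedentary TME libraries 4 and 6. It was 4 in exercised mice alone, 0 in exercised mice alone with a replicate block and 6 with a replicate block over both treatments. Leaving out 1 library at a time gave 13 to 19. Of the 15 members that pass the filter in cancer libraries too, 14 were higher, and 10 without sedentary TME libraries 4 and 6. Of these 15, 3 were higher in exercised mice alone, 0 with the block there and 4 with the block over both treatments. mt-Co2 passed under every alternative run but exercised mice alone with the replicate block, with adjusted p of 1.58e-17 to 0.181. The labels do not say that a number marks a mouse. Same-numbered TME and cancer libraries deviated together by correlations of 0.169, 0.331 and 0.304 in exercised mice (numbers 7, 8 and 10), each the best match. In sedentary mice (4, 6, 9 and 10) the correlations were -0.155, 0.0548, 0.0676 and 0.123, and none was the best match. The number was nonetheless tried as a block in every comparison, sedentary mice included. Across treatments, where equal numbers cannot mark 1 mouse, TME number 9 (0.336) and cancer number 4 (0.249) were best matches too. The other same-numbered pairs across treatments had correlations of -0.103 to 0.0254. What a shared number stands for was not tested. With the replicate block, which within TME cells rests on numbers 9 and 10 alone, the exercise difference in TME cells was 0.68 (mt-Rnr1), 0.49 (mt-Rnr2), 0.14 (mt-Nd1), 0.34 (mt-Nd2), 0.66 (mt-Co1), 0.27 (mt-Co2), 0.53 (mt-Atp6), 0.72 (mt-Co3), 0.55 (mt-Nd3), 0.58 (mt-Nd4l), 0.29 (mt-Nd4), 0.40 (mt-Nd5), 0.10 (mt-Nd6) and 0.39 (mt-Cytb). With the block the exercise difference was -0.12 (mt-Nd2), -0.078 (mt-Nd4), -0.091 (mt-Nd5) and -0.27 (mt-Nd6) in cancer cells. The difference of the exercise effect between the sorts was then 0.32 (mt-Atp8) and 0.60 (mt-Co3). Without sedentary TME libraries 4 and 6, the exercise difference in TME cells was 0.12 (mt-Rnr1), 0.22 (mt-Nd2), 0.35 (mt-Co1), 0.074 (mt-Co2), 0.31 (mt-Atp6), 0.44 (mt-Co3), 0.28 (mt-Nd3), 0.45 (mt-Nd4l), 0.15 (mt-Nd4), 0.15 (mt-Nd5) and 0.20 (mt-Cytb), and the log2 ratio of mt-Rnr2 to mt-Rnr1 differed by -0.087 between exercised and sedentary TME cells. Without them the difference of the exercise effect between the sorts was 0.52 (mt-Rnr1), 0.16 (mt-Rnr2), 0.11 (mt-Nd1), 0.18 (mt-Nd2) and 0.51 (mt-Co1). For the same difference the values were 0.44 (mt-Atp6), 0.89 (mt-Co3), 0.37 (mt-Nd3), 0.73 (mt-Nd4l), 0.10 (mt-Nd4) and 0.38 (mt-Cytb). Leaving out 1 library at a time turned the sign of some values. For exercise in cancer cells these were mt-Nd2 (-0.073 to 0.090), mt-Nd3 (-0.22 to 0.0049), mt-Nd4 (-0.066 to 0.11) and mt-Nd6 (-0.13 to 0.12). For the difference of the exercise effect between the sorts, leaving out 1 library turned mt-Co3 (-1.69 to 0.092). Ratio differences between exercised and sedentary TME cells also turned in mt-Nd6 to mt-Cytb (-0.19 to 0.15), mt-Rnr2 to mt-Rnr1 (-0.14 to 0.18) and mt-Rnr2 to mt-Co1 (-0.38 to 0.042). So did mt-Rnr2 to mt-Rnr1 between TME and cancer cells of exercised mice (-0.071 to 0.25). The same held for mt-Co1 to mt-Nd1 between exercised and sedentary cancer cells (-0.088 to 0.043). With the 13 protein genes alone, the mean mitochondrial share in cancer cells was 2.16% in exercised and 2.30% in sedentary mice. Scaling by library size alone moved the median of all genes by 0.17 on the log2 scale for exercise in TME cells. For the difference of the exercise effect between the sorts the median moved by 0.18. The 15 genes lay below 0 in both. The cause of these changes was not tested. With 4 TME libraries in each treatment and 1 of them at a share of 42.2%, differences in TME cells smaller than the spread between libraries could not be detected.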
